A study of Homo sapiens with 24 samples.

Results

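Desmosomes are the adhesive junctions that fasten keratinocytes to one another, and the 10 genes described here encode their cadherins and the armadillo-repeat proteins bound to the cadherin tails. The desmogleins DSG1, DSG2 and DSG3, the desmocollins DSC1, DSC2 and DSC3, the plakophilins PKP1, PKP2 and PKP3, and plakoglobin (JUP) were taken by gene symbol from the deposited count table, where 10 of 10 were found among 26364 genes. All 10 passed the filter on low counts, which left 15757 genes for testing. RNA sequencing libraries came from nTERT-1 cells, a human keratinocyte line immortalised with telomerase, labelled with 4 genotypes: NT, KAT2A_KD, KAT2B_KD and KAT2AB_KD. Each genotype was sampled at the Subconfluent, Confluent and Differentiated stages, the last being day 4 in the deposited sample table, with 2 libraries in each of the 12 groups. The libraries called replicate 1 and replicate 2 below are numbered 2 and 3 in that sample table. Every library shares the line, the keratinocyte label and the differentiation treatment label. The meaning of NT, the knockdown method and the origin of paired libraries (separate cultures or not) are not in the labels. A p-value here therefore covers the spread between libraries alone, and that spread may be technical.

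A desmosome holds cells together through the outer parts of its desmogleins and desmocollins. Inside the cell, plakoglobin and a plakophilin bind the cadherin tails and connect them through desmoplakin (DSP) to keratin filaments. In human epidermis the family is layered: DSG1 and DSC1 are known from the upper, differentiated layers, DSG3 and DSC3 from the lower layers, and DSG2 and PKP2 from simple epithelia and from poorly differentiated cells. KAT2A and KAT2B encode paralogous lysine acetyltransferases of the SAGA and ATAC coactivator complexes, and the comparisons ask how the desmosomal genes stand in cells labelled with a knockdown of one or both, before and after differentiation.

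The libraries held 8010178 to 16054003 counts, and the 2 libraries of each group correlated at r = 0.963 to 0.981 over genes, which are not independent replicates. Over the mean of the 3 stages, KAT2A fell by 2.54 log2 in KAT2A_KD (adjusted p = 3.5e-05, edgeR) and by 2.04 in KAT2AB_KD, and KAT2B fell by 2.62 in KAT2B_KD (adjusted p = 0.000177) and by 1.53 in KAT2AB_KD. Each of these libraries lay below both NT libraries of its stage, but the 2 KAT2AB_KD libraries of a stage could differ. At Differentiated they held KAT2A at 1.98 and 6.85 CPM and KAT2B at 5.85 and 18.9. At Confluent they held KAT2A at 7.35 and 1.67 CPM and KAT2B at 2.96 and 0.902. The bearing of this on the KAT2AB_KD results was not tested. Not every stage passed alone by edgeR. At Differentiated the KAT2A difference was -1.52 in KAT2A_KD (adjusted p = 0.139) and -1.36 in KAT2AB_KD (adjusted p = 0.144). KAT2B did not pass in KAT2B_KD at Subconfluent (-3.03, adjusted p = 0.0689) and Confluent (-2.15, adjusted p = 0.22), nor in KAT2AB_KD at those stages (-1.73 and -1.07, adjusted p = 0.117 and 0.419). Both genes also changed with stage in NT. From Confluent to Differentiated, KAT2A fell by 1.71 log2 (adjusted p = 0.00318, edgeR) and KAT2B rose by 3.34 (adjusted p = 2.15e-05). Confluent NT libraries held KAT2B at 4.32 and 4.06 CPM, below both Differentiated KAT2AB_KD libraries. All 8 keratinocyte markers were present, with a summed level of 21280 to 84660 CPM. Of 7 fibroblast markers 5 (COL3A1, PDGFRA, PDGFRB, LUM and DCN) were under 1 CPM in every library, while the list's sum was at most 7.71 CPM before differentiation and 31.9 to 53.7 CPM after it, where COL1A1 rose by 4.55 log2 in NT; its part in the results was not tested. The melanocyte marker TYR was at 0 and MLANA and DCT were under 1 CPM in all 24 libraries. The other 3 of the 6 melanocyte markers were present, MITF at up to 11.7 CPM, PMEL at up to 8.3 and SOX10 at up to 6.77, and the list summed to 4.71 to 17.6 CPM. PMEL rose by 3.98 log2 on differentiation in NT (adjusted p = 2.34e-05, edgeR), and MITF was 1.22 log2 higher in KAT2AB_KD over the 3 stages (adjusted p = 0.00257). Their part in the results was not tested.

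In the RefSeq gene table (GRCh38.p14) the 6 cadherin members lie together on chromosome 18, in the order DSC3, DSC2, DSC1, DSG1, DSG3 and DSG2, with DSG4 between DSG1 and DSG3. The RefSeq promoter table of that build held 10 entries for 8 of the 10 members and none for PKP2 and PKP3. The 250 bases before the annotated start are shown for the 2 cadherins with the largest rise on differentiation and for DSG2, the cadherin that fell, because they differ in CpG dinucleotides, which are in capitals. DSG1 (chr18:31317910-31318159, plus strand) has 3 CpG, DSC1 (chr18:31162857-31163106, minus strand) has 1, and DSG2 (chr18:31497927-31498176, plus strand) has 26. Each is written 5′ to 3′ on its gene's strand.
DSG1: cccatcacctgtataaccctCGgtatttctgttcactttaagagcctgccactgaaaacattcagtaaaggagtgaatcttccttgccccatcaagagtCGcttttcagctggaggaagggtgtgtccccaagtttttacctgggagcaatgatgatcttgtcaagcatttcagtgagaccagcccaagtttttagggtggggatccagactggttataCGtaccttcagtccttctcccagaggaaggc
DSC1: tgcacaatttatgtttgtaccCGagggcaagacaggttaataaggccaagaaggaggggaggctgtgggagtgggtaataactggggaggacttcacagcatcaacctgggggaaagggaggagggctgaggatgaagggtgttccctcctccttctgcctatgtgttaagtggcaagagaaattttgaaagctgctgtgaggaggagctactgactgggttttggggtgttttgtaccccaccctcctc
DSG2: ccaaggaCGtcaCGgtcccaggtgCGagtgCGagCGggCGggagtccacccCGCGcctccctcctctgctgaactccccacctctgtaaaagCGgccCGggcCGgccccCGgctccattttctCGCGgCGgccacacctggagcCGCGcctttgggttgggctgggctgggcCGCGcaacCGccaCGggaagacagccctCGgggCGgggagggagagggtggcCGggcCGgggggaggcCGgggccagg
Over all 35116 promoters of the table the median was 11 CpG, with quartiles of 3 and 23. DSG3 had 4 CpG, DSC3 18 and PKP1 17, DSC2 had 12 and 19 in its 2 entries, and JUP had 17 and 13. The GC content was 48.0% in DSG1, 52.0% in DSC1 and 75.2% in DSG2, beside a median of 58.0%. Motifs of 3 factor families known from epidermis were searched on both strands. TGANTCA (AP-1) was in 6.57% of all promoters, AACNGGTT (grainyhead-like) in 1.49% and GGGNGTGG (KLF) in 15.7%. Among the members the search found GGGAGTGG in DSC1, 184 to 177 bases before the start, and GGGCGTGG in the first JUP entry, 46 to 39 bases before it. No other match lay in these windows.

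Differentiation raised 8 of the members and lowered DSG2 and PKP2. In NT cells 8 of the 10 rose from Confluent to Differentiated and 2 fell, where 50.4% of all genes tested were called (24.3% higher and 26.1% lower). The median log2 fold change of the 10 was 2.0, beside -0.01 over all genes. Levels are given in CPM, counts scaled to a common library size with TMM factors, and are compared between samples only, never between genes, because the files give no gene lengths. In these bulk libraries fewer cells of a type and less RNA per cell cannot be told apart.

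**Figure D1:**
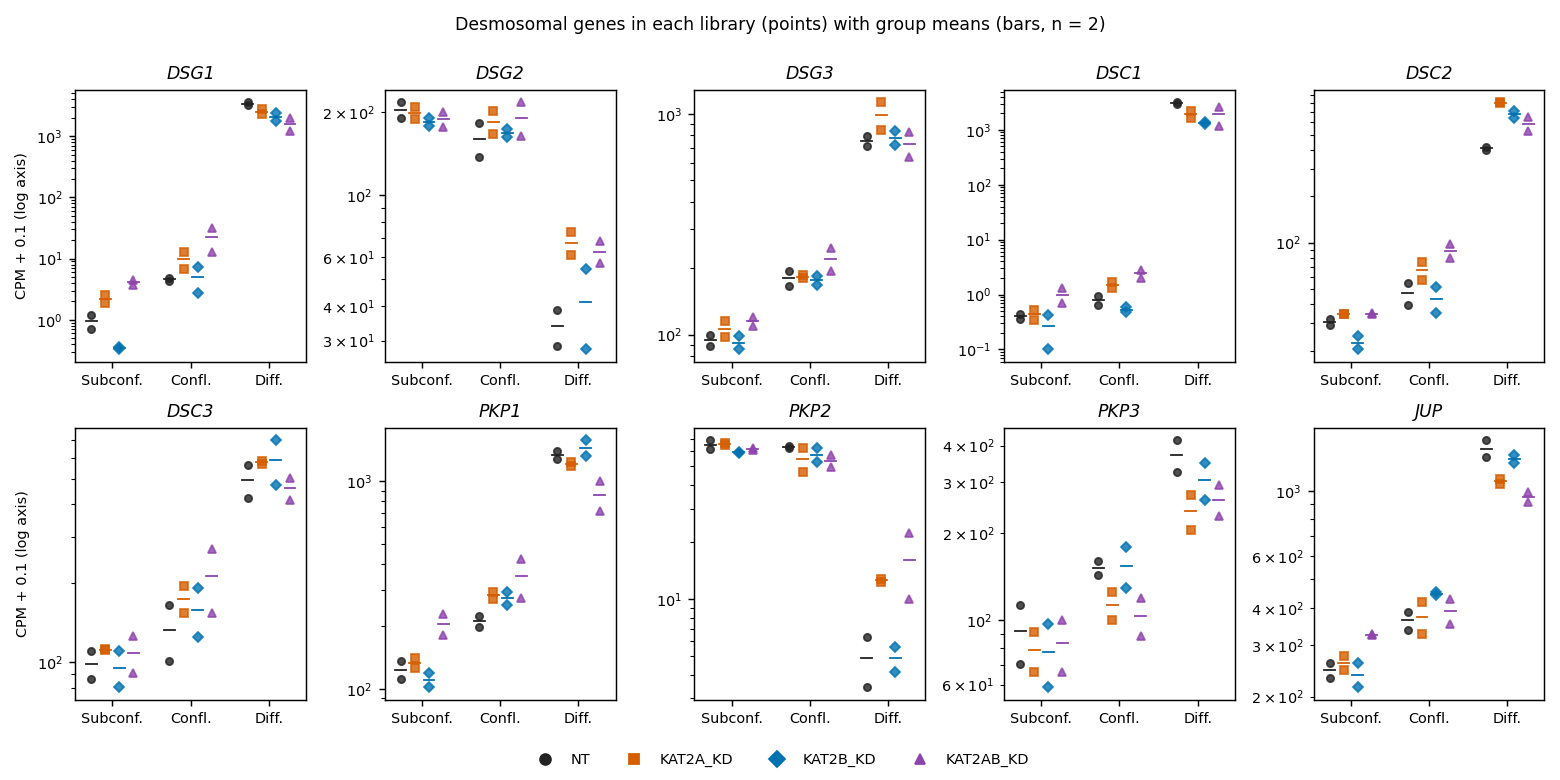
Level of each of the 10 genes in the 24 libraries, in CPM plus 0.1 on a log axis, by stage and genotype; points are libraries and bars are means of 2. The 8 Differentiated libraries lie above all other libraries for 8 genes and below them for DSG2 and PKP2.

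DSG1, the desmoglein of the suprabasal epidermis, measured 0.595 and 1.12 CPM in the Subconfluent NT libraries, 4.79 and 4.27 at Confluent and at 3562 and 3293 at Differentiated. All 8 Differentiated libraries, of any genotype, lay between 1240 and 3562 CPM, and the other 16 lay between 0.228 and 31.8. In NT cells DSG1 rose 756-fold on differentiation (log2 9.56, SE 0.58, adjusted p = 1.12e-10, edgeR's quasi-likelihood test with Benjamini-Hochberg adjustment over all genes). Its paralog DSG3, a desmoglein of the lower layers, stood at 166 and 194 CPM in the Confluent NT libraries and at 789 and 711 at Differentiated, a rise of 4.17-fold (log2 2.06, SE 0.21). DSG2, the widely expressed desmoglein, went the other way. It was at 138 and 182 CPM in Confluent NT cells and at 38.7 and 28.6 after differentiation, and fell by 2.25 log2 (SE 0.27, adjusted p = 9.03e-07, edgeR). Confluent and Differentiated NT libraries did not overlap for any of these genes.

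DSC1, the desmocollin of the upper epidermis, had the largest change of the family. In NT it measured 0.264 and 0.343 CPM at Subconfluent, 0.55 and 0.854 at Confluent, and 3016 and 3161 at Differentiated. The rise in NT was 12.07 log2 (SE 0.56, adjusted p = 8.65e-12, edgeR), and its size rests on 7 and 12 reads in the 2 Confluent NT libraries. In 1 KAT2B_KD Subconfluent library DSC1 had no read, which allows a level of up to 0.228 CPM (3 counts, covering counting error only). DSC2, a desmocollin of many epithelia, stood at 39.4 and 54.8 CPM in Confluent NT cells and 415 and 400 at Differentiated, 8.64-fold higher (log2 3.11, SE 0.23). DSC3, the desmocollin of the lower layers, rose less, from 101 and 165 CPM to 565 and 421 (log2 1.89, SE 0.31). All 3 desmocollins therefore rose, whereas of the 3 desmogleins 2 rose and 1 fell.

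Among the plakophilins, which bind desmoplakin and enlarge the plaque, PKP1 and PKP2 moved apart. PKP1, the plakophilin of stratified epithelia, stood at 225 and 199 CPM in Confluent NT cells and at 1395 and 1274 at Differentiated, and rose by 2.65 log2 (SE 0.24, adjusted p = 2.71e-08, edgeR). PKP2, the plakophilin of simple epithelia and heart, was at 64.3 and 62.6 CPM and then at 3.33 and 6.22, and fell by 3.74 log2 (SE 0.32, adjusted p = 1.23e-08, edgeR), a 13.3-fold drop. PKP3, found through all epidermal layers, rose 2.45-fold, from 143 and 160 CPM to 325 and 416 (log2 1.29, SE 0.30). Plakoglobin (JUP), shared by desmosomes and adherens junctions, rose 3.84-fold, from 388 and 337 CPM to 1301 and 1483 (log2 1.94, SE 0.20). These calls in NT held whichever of the 4 compared libraries was left out.

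The same 8 genes rose and the same 2 fell in each knockdown. All 10 were called in KAT2A_KD (43.1% of all genes, 21.4% higher and 21.7% lower), in KAT2B_KD (39.6%, 19.3% higher and 20.3% lower) and in KAT2AB_KD (46.2%, 22.6% higher and 23.6% lower). DSG1 rose by 8.0 log2 in KAT2A_KD, 8.75 in KAT2B_KD and 6.16 in KAT2AB_KD. DSC1 rose by 10.43, 11.63 and 9.67 log2 in the same order. PKP2 fell by 2.13 log2 in KAT2A_KD, 3.58 in KAT2B_KD and 1.74 in KAT2AB_KD, and DSG2 fell by 1.45, 2.03 and 1.60. The PKP3 call was lost in KAT2A_KD without Confluent replicate 1 (adjusted p = 0.0775, edgeR) or Differentiated replicate 2 (0.0678), and in KAT2B_KD without Confluent replicate 1 (0.138) or Differentiated replicate 2 (0.107). PKP3 was higher in replicate 2 than in replicate 1 in all 12 groups. The DSC3 call in KAT2AB_KD was lost without Confluent replicate 2 (adjusted p = 0.114, edgeR). Scaled by total counts alone, the median of all genes in these 4 comparisons shifts by -0.33 to -0.44 log2, the PKP3 rise in KAT2A_KD and KAT2B_KD and the DSC3 rise in KAT2AB_KD are no longer called, and all 10 directions are the same.

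**Figure D2:**
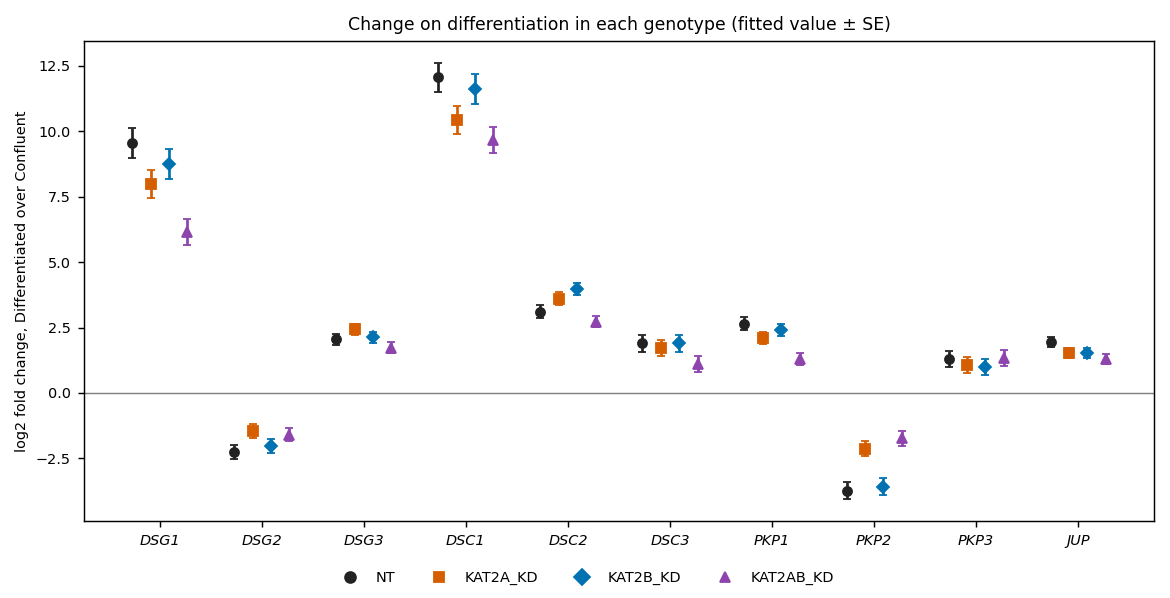
Fitted log2 fold change from Confluent to Differentiated for each gene in the 4 genotypes, with standard errors as bars. The 10 genes have the same sign in every genotype, and the KAT2AB_KD value lies closest to 0 for every gene except DSG2 and PKP3.

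Reads assigned to antisense genes of the cadherin cluster moved with their partners. The kit is labelled as directional but the strand setting of the counting is not given, so reads of a gene and of its antisense partner cannot be told apart. The antisense gene DSCAS held 7.09% to 10.3% of the DSC1 count in the 8 Differentiated libraries and no read in the other 16, which allows up to 0.159 to 0.323 CPM per library. DSG1-AS1 held 7.28% to 8.62% of the DSG1 count at Differentiated, and DSG2-AS1 held 3.17% to 7.41% of the DSG2 count. Against NT at Differentiated, DSG1-AS1 was called lower in KAT2AB_KD (log2 -1.20, adjusted p = 0.0383, edgeR). DSG2-AS1 was called higher in KAT2A_KD at that stage (log2 1.35, adjusted p = 0.0481, edgeR). No other difference of these antisense genes from NT at a single stage passed.

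Before differentiation the changes were smaller. From Subconfluent to Confluent, 2 of the 10 genes were called in NT, where 0.901% of all genes were: DSG1 rose by 2.43 log2 (SE 0.57, adjusted p = 0.0483, edgeR), and DSG3 rose by 0.94 (SE 0.20, adjusted p = 0.0275). DSG3 stood at 99.6 and 88.4 CPM in Subconfluent and 166 and 194 in Confluent NT cells, and the stages did not overlap. In KAT2A_KD none of the 10 was called by edgeR (0.235% of all genes), with 7 at an unadjusted p under 0.05 and 4 called by DESeq2 (DSG1, DSG3, DSC2 and PKP1). Here and below, each share of all genes is of edgeR calls. The share at an unadjusted p under 0.05 was not computed, so member counts at that threshold have no background. Member counts by DESeq2 are likewise given without its share of all genes in the same comparison. In KAT2B_KD 5 rose (1.61% of all genes): DSG1 by 4.24 log2, PKP1 by 1.30, DSG3 by 0.94, DSC2 by 0.94 and JUP by 0.91. In KAT2AB_KD 3 rose (0.609% of all genes): DSG1 by 2.48, DSC2 by 1.36 and DSG3 by 0.94. Leaving out any 1 of the 4 compared libraries left 0 calls in NT (adjusted p of 0.132 to 0.441 for DSG1 and 0.0701 to 0.265 for DSG3, edgeR), 0 to 3 in KAT2B_KD and 0 to 2 in KAT2AB_KD. With total count scaling DSG1 alone remained called in KAT2B_KD and in KAT2AB_KD, and neither gene in NT. The fitted change of DSG2 and PKP2 between these stages was between -0.34 and 0.01 log2 in the 4 genotypes, and none was called.

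The knockdowns were next compared with NT at each stage. Whether libraries overlap is given as a description only. The share of all genes whose libraries separate in the same way was not computed. DSG1 was higher in the double knockdown before differentiation. At Subconfluent it stood at 4.38 and 3.57 CPM in KAT2AB_KD against 0.595 and 1.12 in NT, 2.24 log2 higher (SE 0.57, adjusted p = 0.0394, edgeR), the 1 call among the 10 where 2.7% of all genes were called. At Confluent DSG1 was at 31.8 and 12.5 CPM in KAT2AB_KD against 4.79 and 4.27 in NT, 2.29 log2 higher (SE 0.45, adjusted p = 0.00578, edgeR). Both KAT2AB_KD libraries lay above both NT libraries at each of these stages. The Subconfluent call was lost without any 1 of the 4 libraries (adjusted p of 0.11 to 0.262, edgeR), and the Confluent call without KAT2AB_KD replicate 1 (log2 1.46, adjusted p 0.189), NT replicate 1 (0.0824) or NT replicate 2 (0.101). At Confluent, where 2.28% of all genes were called, the other call among the 10 was DSC2, at 97.3 and 79.9 CPM in KAT2AB_KD against 39.4 and 54.8 in NT (log2 0.91, SE 0.22, adjusted p = 0.0292, edgeR), lost without KAT2AB_KD replicate 1 (0.285) or NT replicate 1 (0.408). DESeq2 also called DSC1 and PKP1 there.

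Markers of other states and cell types moved in the same comparisons of KAT2AB_KD with NT. Of the 6 differentiation markers, TGM1 was 3.57 log2 higher at Subconfluent (adjusted p = 1.38e-05, edgeR), and at Confluent TGM1 was 1.5 higher (adjusted p = 0.00883) and IVL 2.65 higher (adjusted p = 0.00143). The sum of the 6 was 561 and 498 CPM in KAT2AB_KD against 422 and 450 in NT at Subconfluent, and 874 and 864 against 745 and 520 at Confluent. COL1A1, of the fibroblast list, was 1.62 log2 higher at Subconfluent (adjusted p = 0.00569, edgeR) and 1.38 higher at Confluent (adjusted p = 0.0233). The fibroblast list summed to 6.57 and 7.71 CPM against 2.58 and 2.32 at Subconfluent, and to 7.56 and 5.27 against 3.14 and 1.64 at Confluent. The melanocyte list summed to 16.3 and 17.6 CPM against 8.39 and 8.93 at Subconfluent and to 8.51 and 6.94 against 4.71 and 5.41 at Confluent. Their part in the DSG1 and DSC2 differences was not tested.

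In the single knockdowns before differentiation no member was called by edgeR. KAT2A_KD against NT had 0 calls at Subconfluent (0.343% of all genes) and at Confluent (0.647%), with 1 and 2 members at an unadjusted p under 0.05 and none called by DESeq2. KAT2B_KD against NT had 0 calls at Subconfluent (0.0888% of all genes) and at Confluent (0.463%), with none at an unadjusted p under 0.05 and none called by DESeq2. DSG1 stood at 2.41 and 1.76 CPM in Subconfluent KAT2A_KD cells and at 0.228 and 0.261 in KAT2B_KD cells, the latter from 3 and 4 reads in its 2 libraries. The difference between those 2 groups was 3.05 log2 (SE 0.75, adjusted p = 0.0917, edgeR) and did not pass.

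At Differentiated PKP2 was higher in both genotypes with KAT2A knocked down. It stood at 3.33 and 6.22 CPM in NT, 12.3 and 12.7 in KAT2A_KD, 4.02 and 5.53 in KAT2B_KD and 22.1 and 9.89 in KAT2AB_KD. Both libraries of KAT2A_KD and of KAT2AB_KD lay above both NT libraries, while KAT2B_KD overlapped NT. PKP2 was 1.39 log2 higher in KAT2A_KD (SE 0.32, adjusted p = 0.0374, edgeR), where 1.22% of all genes were called, and 1.74 higher in KAT2AB_KD (SE 0.31, adjusted p = 0.00608), where 2.74% were. In KAT2A_KD the call was lost without any 1 of the 4 libraries (adjusted p of 0.0679 to 0.301, edgeR), and in KAT2AB_KD without KAT2AB_KD replicate 1 (log2 1.07, adjusted p 0.0842) or NT replicate 1 (log2 1.36, adjusted p 0.0855). PKP2 was also 1.37 log2 higher in KAT2A_KD than in KAT2B_KD (SE 0.31, adjusted p = 0.0208, edgeR), the 1 member called in that comparison (2.38% of all genes), and this call was lost without KAT2B_KD replicate 1 (0.206), KAT2A_KD replicate 1 (0.118) or KAT2A_KD replicate 2 (0.0848). The other gene that fell on differentiation, DSG2, stood at 38.7 and 28.6 CPM in NT, 60.9 and 73.5 in KAT2A_KD, 27.8 and 54.3 in KAT2B_KD and 57.1 and 68.3 in KAT2AB_KD. Its differences from NT of 1.0 log2 in KAT2A_KD (adjusted p = 0.065, edgeR) and 0.90 in KAT2AB_KD (adjusted p = 0.0737) did not pass, while DESeq2 called both. MITF was 1.60 log2 higher in KAT2AB_KD at this stage (adjusted p = 0.0496, edgeR), and its part was not tested.

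**Figure D3:**
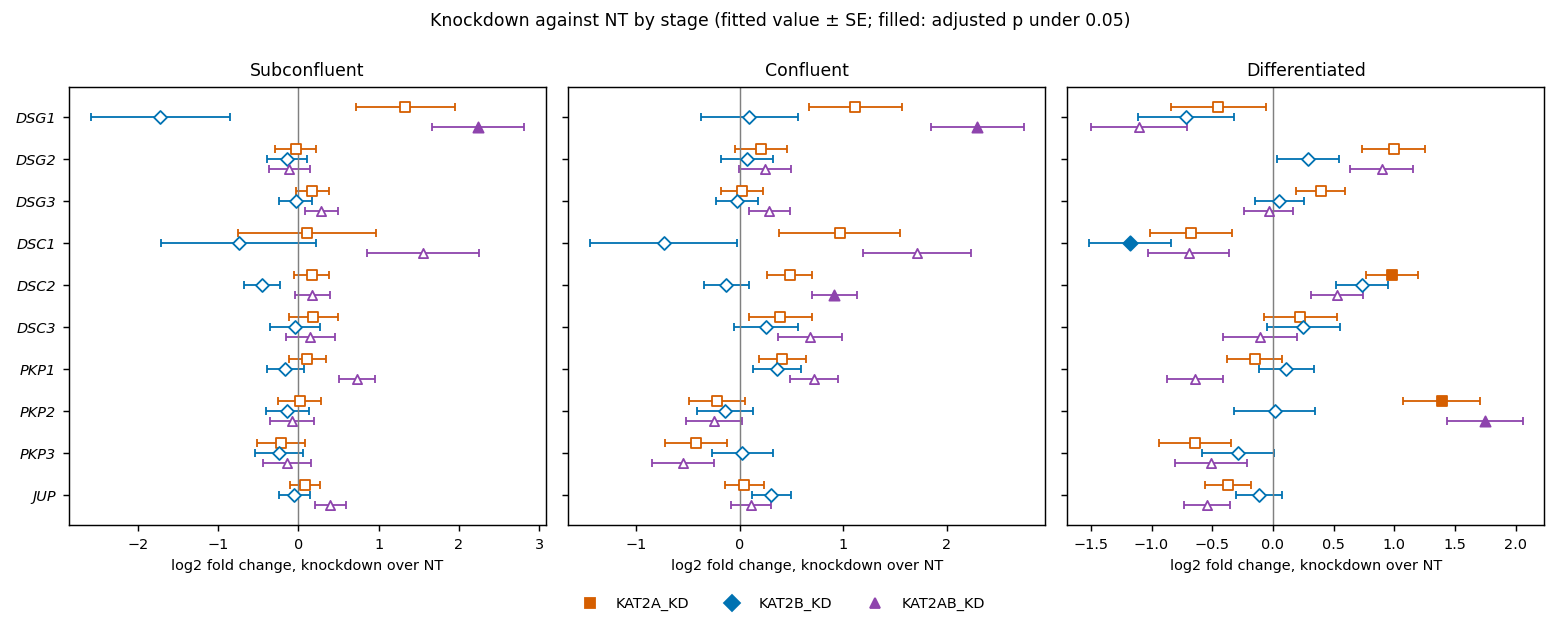
Fitted log2 fold change of each knockdown over NT at the 3 stages, with standard errors as bars and filled markers for an adjusted p under 0.05 (each panel has its own scale). DSG1 in KAT2AB_KD lies right of 0 at Subconfluent and Confluent and left of 0 at Differentiated, and PKP2 is filled for KAT2A_KD and KAT2AB_KD at Differentiated.

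Of the desmocollins at Differentiated, DSC2 was higher than NT in KAT2A_KD and DSC1 was lower in KAT2B_KD. DSC2 stood at 415 and 400 CPM in NT and at 801 and 808 in KAT2A_KD, 0.98 log2 higher (SE 0.22, adjusted p = 0.0314, edgeR), a call lost without any 1 of the 4 libraries (0.129 to 0.239). In KAT2B_KD it was at 644 and 711 CPM (log2 0.73, adjusted p = 0.0546) and in KAT2AB_KD at 530 and 646 (log2 0.53, adjusted p = 0.213), neither of which passed by edgeR (DESeq2 called KAT2B_KD), although all 6 knockdown libraries lay above both NT libraries. DSC1 stood at 3016 and 3161 CPM in NT and at 1308 and 1419 in KAT2B_KD, where it fell by 1.18 log2 (SE 0.34, adjusted p = 0.049, edgeR), the 1 member called among 4.85% of all genes. That call was also lost without any 1 of the 4 libraries (0.113 to 0.218). In KAT2A_KD DSC1 was at 1647 and 2223 CPM and in KAT2AB_KD at 1161 and 2662, with log2 differences of -0.67 and -0.69 that did not pass; without KAT2AB_KD replicate 2 the KAT2AB_KD difference was -1.42 and passed (adjusted p = 0.038, edgeR).

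DSG1 at Differentiated was at 3562 and 3293 CPM in NT, 2271 and 2748 in KAT2A_KD, 1752 and 2420 in KAT2B_KD and 1240 and 1954 in KAT2AB_KD. No difference passed (log2 -0.45, -0.72 and -1.10, adjusted p = 0.716, 0.358 and 0.159, edgeR). All 6 knockdown libraries lay below both NT libraries, which the 3 knockdowns share, and the share of all genes that do so was not computed. The sum of 6 differentiation markers was also lower in all 6, though not every marker was. The summed level of KRT1, KRT10, IVL, TGM1, FLG and LOR was 43053 and 33505 CPM in Differentiated NT cells, 26940 and 13945 in KAT2A_KD, 25122 and 16930 in KAT2B_KD and 23129 and 15003 in KAT2AB_KD. IVL measured 55.5 and 49.3 CPM in the NT libraries, 79.9 and 41.2 in KAT2A_KD and 48 and 61.2 in KAT2AB_KD, which overlap. LOR measured 78 and 81 CPM in the NT libraries against 90 and 31.9 in KAT2A_KD. Of these 6 markers edgeR called 3 (IVL, FLG and LOR) lower than NT in KAT2B_KD and 1 (KRT1) lower in KAT2AB_KD. In KAT2A_KD the lowest adjusted p among them was 0.0609 (KRT1, edgeR). Without a call, KRT10, TGM1 and FLG lay below both NT libraries in KAT2A_KD and in KAT2AB_KD. So did KRT1 in KAT2A_KD, TGM1 in KAT2B_KD and LOR in KAT2AB_KD. Their part in the values of DSG1 and DSC1 was not tested.

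DSG3, DSC3, PKP1, PKP3 and JUP were called by edgeR in no knockdown against NT at a single stage, while DESeq2 called PKP1 in KAT2AB_KD at Subconfluent and Confluent and JUP in KAT2AB_KD at Differentiated. DSG3 at Differentiated measured 789 and 711 CPM in NT, 847 and 1125 in KAT2A_KD, 721 and 835 in KAT2B_KD and 640 and 823 in KAT2AB_KD, and KAT2A_KD alone did not overlap NT (log2 0.39, adjusted p = 0.426, edgeR). DSC3 measured 565 and 421 CPM in NT and between 416 and 700 in the 6 knockdown libraries, which overlapped NT in KAT2B_KD and KAT2AB_KD. PKP3 measured 325 and 416 CPM in NT, 205 and 271 in KAT2A_KD, 260 and 348 in KAT2B_KD and 229 and 291 in KAT2AB_KD. KAT2A_KD and KAT2AB_KD lay below both NT libraries for PKP3, with log2 differences of -0.64 and -0.51 that did not pass. PKP1 measured 136 and 111 CPM in Subconfluent NT cells and 228 and 182 in KAT2AB_KD, then 225 and 199 against 424 and 274 at Confluent and 1395 and 1274 against 715 and 996 at Differentiated. It was above NT in both KAT2AB_KD libraries at the first 2 stages and below it at the last, without passing at any of them by edgeR. Without KAT2AB_KD replicate 2 the Confluent difference passed (log2 1.03, adjusted p = 0.0402, edgeR). JUP at Differentiated was lowest in KAT2AB_KD, at 916 and 994 CPM against 1301 and 1483 in NT (log2 -0.54, adjusted p = 0.147, edgeR).

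Averaged over the 3 stages, DSC2 was 0.54 log2 higher in KAT2A_KD (SE 0.13, adjusted p = 0.0241, edgeR), the 1 member called where 1.94% of all genes were. In KAT2AB_KD (7.48% of all genes) 2 were called by edgeR. DSG1 was 1.15 log2 higher (SE 0.27, adjusted p = 0.0137, edgeR) and DSC2 0.54 higher (SE 0.13, adjusted p = 0.011). DESeq2 also called DSC1 and PKP2 there. DSC2 in KAT2A_KD lost its call without 10 of the 12 libraries compared (adjusted p of 0.0569 to 0.107, edgeR). In KAT2AB_KD, DSG1 lost it without NT Subconfluent replicate 1 (adjusted p = 0.06) or KAT2AB_KD Confluent replicate 1 (0.0578), and DSC2 without NT Confluent replicate 1 (0.0519). In KAT2B_KD (2.42% of all genes) none of the 10 was called by edgeR, with 2 at an unadjusted p under 0.05 and none called by DESeq2. For DSG1 this average joins a positive difference at 2 stages with a negative fitted difference at the other.

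The change on differentiation was then compared between each knockdown and NT. In KAT2AB_KD 3 of the 10 differed from NT, where 1.33% of all genes did. The DSG1 rise was smaller by 3.40 log2 (fitted difference -3.40, SE 0.60, adjusted p = 0.00486, edgeR), and the call held without each of the 8 libraries compared (adjusted p of 0.000973 to 0.0415). The PKP1 rise was also smaller, with a difference of -1.36 (SE 0.32, adjusted p = 0.0393, edgeR): PKP1 stood at 424 and 274 CPM at Confluent and 715 and 996 at Differentiated in KAT2AB_KD. The PKP2 fall was shallower, with a difference of 2.0 (SE 0.41, adjusted p = 0.0165, edgeR). DSC1 had -2.40 and did not pass by edgeR (adjusted p = 0.0622), while DESeq2 called it. Without KAT2AB_KD Differentiated replicate 2 the DSC1 difference was -3.13. The PKP1 call was lost without 6 of the 8 libraries (adjusted p of 0.094 to 0.231, edgeR; it held without either KAT2AB_KD replicate 2 library), and the PKP2 call without 5 of the 8 (0.0503 to 0.119; it also held without NT Differentiated replicate 2). The differentiation markers KRT1 (-2.08), IVL (-2.59) and TGM1 (-2.24) and the fibroblast marker COL1A1 (-1.76, adjusted p = 0.0366) were called in the same comparison by edgeR. Their part in the DSG1 and PKP1 differences was not tested.

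In KAT2A_KD none of the 10 differed from NT in its change on differentiation by edgeR (0.616% of all genes), with 4 at an unadjusted p under 0.05 and PKP2 called by DESeq2. In KAT2B_KD none did (0.888% of all genes), with 1 at an unadjusted p under 0.05 and none called by DESeq2. The single knockdowns against each other gave 0 calls at Subconfluent (0.533% of all genes; 2 at an unadjusted p under 0.05, and DSG1 called by DESeq2) and at Confluent (0.286%; 3 at an unadjusted p under 0.05 and none by DESeq2). The knockdown comparisons share their NT libraries.

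The choice of fit bears on these calls. With total count scaling, DSG1 in Subconfluent and DSC2 in Confluent KAT2AB_KD cells, DSC2 in Differentiated KAT2A_KD cells and over its 3 stages, DSC1 in Differentiated KAT2B_KD cells and the PKP1 difference in KAT2AB_KD no longer passed. With only the compared groups in the fit, every knockdown call at a single stage was lost except DSG1 in Confluent KAT2AB_KD cells, as were the PKP1 and PKP2 differences in KAT2AB_KD. The DSG1 difference in the change on differentiation passed under each of these settings, and no called direction was reversed.

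Ratios between paralogs within a library do not depend on library scaling. The log2 ratio of DSG1 to DSG3 counts moved from -7.31 and -6.25 in Subconfluent NT cells to -5.10 and -5.49 at Confluent and 2.17 and 2.21 at Differentiated. In the Differentiated knockdowns it was 1.42 and 1.29 in KAT2A_KD, 1.28 and 1.54 in KAT2B_KD and 0.95 and 1.25 in KAT2AB_KD, below both NT libraries in all 6. The ratio of DSC1 to DSC3 was 2.42 and 2.91 in Differentiated NT cells, 1.53 and 1.93 in KAT2A_KD, 1.46 and 1.02 in KAT2B_KD and 1.48 and 2.41 in KAT2AB_KD. Here again the 6 knockdown libraries lay below both NT libraries, although the highest of them fell short by less than 0.01. The ratio of PKP1 to PKP2 was 8.69 and 7.67 in NT, 6.58 and 6.60 in KAT2A_KD, 8.33 and 8.14 in KAT2B_KD and 5.02 and 6.65 in KAT2AB_KD. It was lower than in NT in both groups with KAT2A knocked down and overlapped NT in KAT2B_KD. These ratios are descriptions, with no test.

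**Figure D4:**
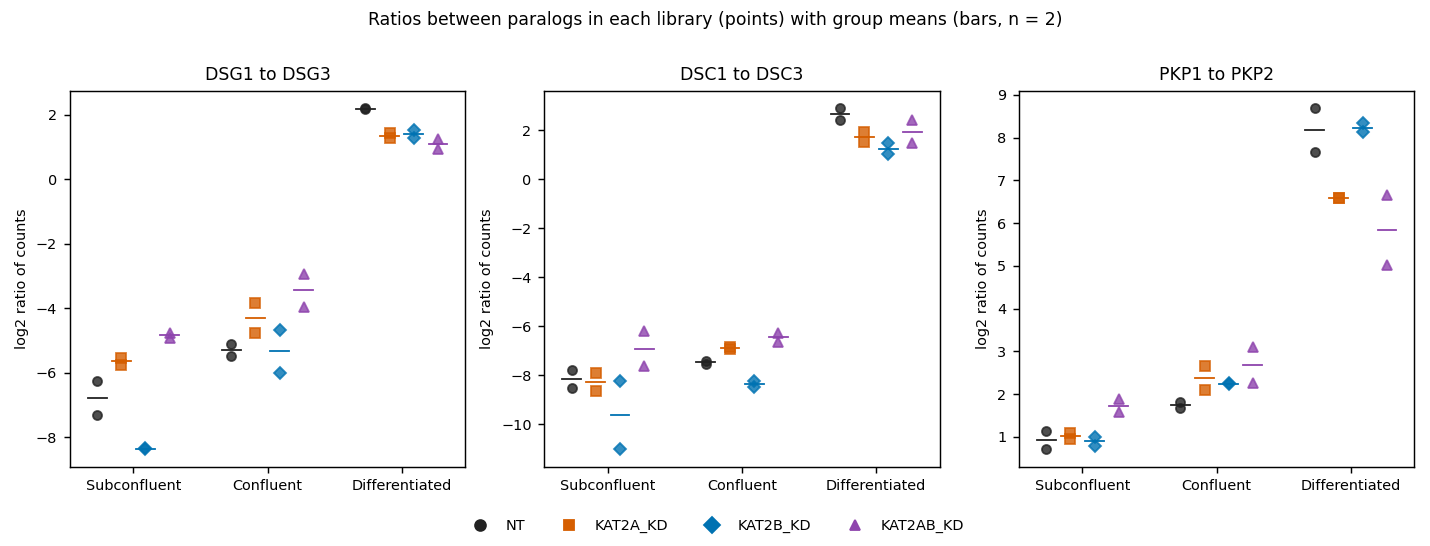
Log2 ratio of the counts of DSG1 to DSG3, DSC1 to DSC3 and PKP1 to PKP2 in each library (0.5 added to each count), by stage and genotype; points are libraries and bars are means of 2. At Differentiated the DSG1 to DSG3 ratio is 2.17 and 2.21 in NT and 0.95 to 1.54 in the knockdowns.

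Ordered by mean level over the 12 groups, DSG1 ran from Differentiated NT (3427 ± 190 CPM, SD, n = 2) down through KAT2A_KD, KAT2B_KD and KAT2AB_KD at Differentiated (1597 ± 505) to KAT2B_KD at Subconfluent (0.245 ± 0.023). Of its 11 pairs of neighbours 6 overlapped, among them KAT2A_KD with KAT2B_KD and KAT2B_KD with KAT2AB_KD at Differentiated. KAT2A_KD and KAT2AB_KD, which are not neighbours, did not overlap at that stage. For DSG2, DSC3 and PKP3, 9 of 11 neighbouring pairs overlapped. DSC2 had the fewest overlaps, 4 of 11.

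Across the 24 libraries, which differ in stage and depth, DSG2 and PKP2 followed each other (Pearson's r of log CPM 0.955). Both were negatively correlated with the other 8 members, with r of -0.837 (DSG2 with DSC3) to -0.942 (DSG2 with JUP). The genes most alike in pattern were sought among 12553 whose log2 CPM averaged at least 1, with the members left out. Some members lay closer to each other than to these genes, such as JUP to PKP1 (r = 0.983). The most alike were LYPD3 (r = 0.995) and ZNF185 (0.993) for DSG1, and DGAT2 (0.995) and CD36 (0.991) for DSC1. For DSG2 they were SLFN11 (0.985) and ITGA4 (0.984), and for PKP2 ANXA3 (0.978) and FST (0.976). Outside the members, DSG3 was closest to MPZL2 and DSG1-AS1, DSC2 to CLCA2 and MPZL2, and DSC3 to KDM5B and DSP. In the same ranking PKP1 was closest to ZNF185 and RAPGEFL1, PKP3 to MMP28 and DLX2, and JUP to TRIM29 and DSG1-AS1. For DSG3, DSC2, DSC3, PKP1, PKP3 and JUP these r ran from 0.953 to 0.989. These are descriptions over libraries that form 3 stages.

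Other junction genes are set against the 24.3% higher and 26.1% lower among all genes tested in NT, at a median of -0.01 log2. Of 8 further desmosomal and cornified-layer genes 6 rose on differentiation in NT and 0 fell (median log2 3.12): PERP, a desmosomal membrane protein, by 3.26, CDSN, the corneodesmosin of the cornified layer, by 5.53, and the plakins PPL, EVPL and DSP by 2.93, 3.24 and 3.0. Of 10 adherens junction genes 5 rose and 2 fell (median 0.42), with PVRL4 5.03 log2 higher, PVRL1 1.81 and MLLT4 1.49 higher, and CTNNB1, the close relative of plakoglobin, lower by a fitted -1.14. Of 9 tight junction genes 7 rose and 1 fell, with CLDN4 4.72, CLDN1 4.14 and OCLN 2.92 log2 higher. Against NT at Differentiated, the 1 call among the 8 desmosomal genes in the 3 knockdowns was CDSN, lower in KAT2B_KD (log2 -3.29, adjusted p = 0.000357, edgeR). In Subconfluent KAT2AB_KD cells, where DSG1 was higher, PPL was 1.91 log2 higher (adjusted p = 0.000788, edgeR) and PVRL4 3.29 higher (adjusted p = 1.8e-05). The CDSN call and the Subconfluent PPL and PVRL4 calls in KAT2AB_KD held without each of the 4 libraries compared.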

How the data were processed

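Polyadenylated RNA of nTERT-1 cells was sequenced single-end with a directional kit, per the labels' protocols. The authors deposited raw read counts per gene; Bowtie2, featureCounts, DESeq2, FastQC and the hg19 build are named in the submitters' processing notes, without versions or a strand setting. 1 count column that matched no sample was not used, and 28 gene symbols had been turned into dates, none of them a member. Members and gene lists were chosen with earlier results of these data known.

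The counts of all 24 libraries were fitted in edgeR 4.0.16 (R 4.3.3; TMM factors, filterByExpr, quasi-likelihood test) with 12 group means and no covariate. P-values were adjusted by Benjamini-Hochberg over 15757 genes and called under 0.05. The SE is the log2 fold change divided by the root of F. Named genes are the members, the 2 genes outside the members most alike in pattern to each, list genes with the lowest p or a call, and markers. The script was tested on simulated counts. Alternatives were DESeq2 1.42.0, other scalings, no filter, a replicate block, the compared groups only and leaving out each library. No sequence was read from hg19.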

Additional observations from a re-analysis of the deposited data

Results flagged for a closer look

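The change from Confluent to Differentiated differed between KAT2AB_KD and NT in 3 of the 10 genes by the interaction test (edgeR, adjusted over all genes). For DSG1 the difference was -3.40 log2 (adjusted p = 0.00486), and both KAT2AB_KD libraries lay above NT at Confluent and below it at Differentiated. For PKP1 it was -1.36 (adjusted p = 0.0393), and for PKP2 it was 2.0 (adjusted p = 0.0165), where the fall in KAT2AB_KD was the shallower. The differentiation markers KRT1, IVL and TGM1 differed in the same comparison by -2.08, -2.59 and -2.24, and their part was not tested.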

How the results depend on the processing

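The counts of members called rest on 2 libraries per group. RLE scaling left every count within 1.5 times. Total count scaling, which moved the median of all genes by between -0.44 and 0.18 log2, gave 0 calls for NT, Confluent over Subconfluent, KAT2AB_KD at Subconfluent, KAT2B_KD at Differentiated and KAT2A_KD over 3 stages, and 1 for KAT2B_KD and KAT2AB_KD, Confluent over Subconfluent, KAT2A_KD at Differentiated and KAT2AB_KD at Confluent. Without the low-count filter there were 4 for KAT2A_KD and 5 for KAT2AB_KD, Confluent over Subconfluent, 1 for KAT2A_KD at Confluent, 3 for KAT2AB_KD at Differentiated, 2, 1 and 4 over 3 stages (KAT2A_KD, KAT2B_KD, KAT2AB_KD), 2 for the KAT2A_KD difference and 1 for KAT2A_KD over KAT2B_KD at Subconfluent. DESeq2 gave 4 for NT and for KAT2A_KD, Confluent over Subconfluent, 2 for KAT2B_KD at Differentiated, 2, 4 and 3 for KAT2AB_KD at the 3 stages, 4 for its mean, 1 for the KAT2A_KD difference and 1 for KAT2A_KD over KAT2B_KD at Subconfluent. The fit of the compared groups only gave 1, 3, 2 and 0 for Confluent over Subconfluent (NT, KAT2A_KD, KAT2B_KD, KAT2AB_KD), 0 for each knockdown at Differentiated, 0 and 1 for KAT2AB_KD at Subconfluent and Confluent, 1 for its difference and 0 for KAT2A_KD over KAT2B_KD at Differentiated. The causes were not tested. Over all genes, comparisons other than Differentiated over Confluent had 14 to 1179 calls, 104 to 1684 without the filter, 66 to 1515 by DESeq2 and 0 to 927 with the compared groups only.

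Leaving out a library gave 9 to 10 calls on differentiation in each knockdown (10 in NT), 0 in NT, 0 to 3 in KAT2B_KD and 0 to 2 in KAT2AB_KD for Confluent over Subconfluent, 0 for KAT2A_KD and KAT2B_KD at Differentiated, 0, 0 to 3 and 0 to 2 for KAT2AB_KD at the 3 stages, 0 to 1 and 1 to 3 for the means of KAT2A_KD and KAT2AB_KD, 1 to 4 for the KAT2AB_KD difference and 0 to 2 for KAT2A_KD over KAT2B_KD at Differentiated.

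The correlation of same-numbered deviations was over 0.1 in 37 of 66 pairs of groups, not in all (median 0.118, -0.256 to 0.406). The libraries were treated as unpaired, a choice that does not show that same-numbered libraries are unrelated. PKP3 was higher in replicate 2 in 12 of 12 groups and DSC1 in 11. The other members ranged from 4 groups (JUP) to 9 (DSC2). With the replicate block 7 member values gained a call and no call was lost, so some differences that did not pass depend on this choice. There were 2 calls for KAT2B_KD at Differentiated and 2 for KAT2A_KD over 3 stages. PKP3 gained calls for Confluent over Subconfluent in NT (log2 0.76) and KAT2B_KD (1.0) and over 3 stages in KAT2A_KD (-0.43) and KAT2AB_KD (-0.40).

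Under the alternatives 117 member values changed sign, none of them past the threshold in both fits. In the fit of the compared groups only, some member values could not be computed, because the gene failed the low-count filter there. The 108 ratio values under the alternatives include those with 1 of the 2 libraries left out. These could not move by more than 1 SD, so they say nothing on stability. With 1 added to each count the largest move was 0.562 log2, and 2 ratios moved by more than 1 SD. They were DSG1 to DSG3 in Subconfluent KAT2B_KD (-8.18) and DSC1 to DSC3 in Confluent NT (-7.41). Depth limits DSG1 and DSC1 before differentiation, at 3 to 602 and 0 to 51 reads a library.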
